A study of Mus musculus with 36 samples.

Results

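Genes of the Z-disc, the M-band and the stretch response of striated muscle (10 in all) were followed through soleus and EDL of mice with muscle deletions of oestrogen-related receptors (ERRs). They were taken by name (Myoz1, Myoz2, Actn2, Actn3, Des, Hspb7, Myom3, Csrp3, Ankrd2 and Ankrd1) and are 10 of the 17873 genes that have a value in the deposited table. All 10 passed the filter on low values, as did 13404 genes in total, and all 10 had a value in each of the 36 libraries.

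RNA-seq libraries were made from muscles of males aged 1 year on the C57BL/6JBom background. The groups are labelled ERRalpha mKO, ERRbeta/ERRgamma dmKO and ERRalpha/ERRgamma dmKO, each class with its own wild-type (WT) littermates, in EDL and in soleus, with 3 libraries in each of the 12 groups. The deletions used floxed ERR genes and CRE driven by the human α-skeletal actin (HSA) promoter, which is active in muscle fibres, so the other cells of the muscle keep the genes. The wild-type columns carry a mark read here as floxed without CRE, while the sample labels give WT only. The libraries came from 22 animals, 14 of which gave both muscles. The values are log2 signals that the authors quantile normalized, given here for the 3 libraries of a group in order of replicate number. Read depth is unknown and each library had 13667 to 14951 detected genes. Whether the signals are per length is not stated in the sources used here, so levels of different genes are not compared. In bulk tissue, fewer fibres of a type and less RNA per fibre cannot be told apart.

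The Z-disc joins neighbouring sarcomeres and anchors their actin filaments through α-actinin, and the M-band cross-links the myosin filaments at the centre of the sarcomere. Both structures carry proteins that respond to load, and several of them move to the nucleus or change in amount when a muscle is stretched or overloaded. Slow and fast fibres build these structures from different isoforms. ERRs are orphan nuclear receptors best known for controlling genes of mitochondrial oxidative metabolism in muscle.

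On GRCm38 with GENCODE vM21 the genes lie as follows. Myoz1 (chr14:20649107-20656540, minus strand) and Myoz2 (chr3:123006206-123035015, minus strand) encode calsarcins, Z-disc proteins that bind α-actinin and calcineurin, Myoz2 being the form of slow fibres and heart. Actn2 (chr13:12269426-12340760, minus strand) and Actn3 (chr19:4861216-4877909, minus strand) encode the muscle α-actinins, Actn3 being confined to fast fibres. Des (chr1:75360329-75368579, plus strand) encodes desmin, the intermediate filament protein that ties neighbouring Z-discs together, and Hspb7 (chr4:141420779-141425311, plus strand) a small heat shock protein of heart and skeletal muscle. Myom3 (chr4:135759715-135815564, plus strand) encodes an M-band myomesin. Csrp3 (chr7:48830398-48848033, minus strand) encodes muscle LIM protein, and Ankrd2 (chr19:42036000-42045110, plus strand) and Ankrd1 (chr19:36111961-36120099, minus strand) encode ankyrin repeat proteins induced by stretch and injury. The antisense gene Gm15179 overlaps Des and the miRNA gene Gm22066 overlaps Myoz2. The library kit was directional, but whether the counting used the strand is not stated, so Des and its antisense partner cannot be told apart.

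The 250 bases before the RefSeq start site (GRCm38.p6) were read for 8 of the 10 genes, in 9 windows because Csrp3 has 2 starts. The sequences of Csrp3, Myoz2 and Hspb7 are printed because these genes were high together in EDL of the ERRalpha/ERRgamma class, and that of Ankrd1 because it rose most in soleus. Of the Csrp3 windows only the one outside the gene's span is printed. The other (chr7:48843672-48843921, minus strand) held E-boxes too. Des was also called in that EDL comparison and its window is not printed. Capitals mark matches, on either strand, to CANNTG (E-box, bound by myogenic factors), to CATTCC (the MCAT motif bound by TEAD factors, GGAATG on the other strand) and to the MEF2 site.
Csrp3 (chr7:48848052-48848301, minus strand): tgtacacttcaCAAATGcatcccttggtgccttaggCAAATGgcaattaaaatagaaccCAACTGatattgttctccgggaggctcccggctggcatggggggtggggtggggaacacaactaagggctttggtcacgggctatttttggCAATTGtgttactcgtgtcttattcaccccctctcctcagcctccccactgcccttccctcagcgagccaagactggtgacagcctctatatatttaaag
Myoz2 (chr3:123034988-123035237, minus strand): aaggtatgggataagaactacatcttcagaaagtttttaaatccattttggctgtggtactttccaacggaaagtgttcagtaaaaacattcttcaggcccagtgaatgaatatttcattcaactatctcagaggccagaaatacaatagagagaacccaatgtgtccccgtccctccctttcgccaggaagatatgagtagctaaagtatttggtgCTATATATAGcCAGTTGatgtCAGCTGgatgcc
Hspb7 (chr4:141420529-141420778, plus strand): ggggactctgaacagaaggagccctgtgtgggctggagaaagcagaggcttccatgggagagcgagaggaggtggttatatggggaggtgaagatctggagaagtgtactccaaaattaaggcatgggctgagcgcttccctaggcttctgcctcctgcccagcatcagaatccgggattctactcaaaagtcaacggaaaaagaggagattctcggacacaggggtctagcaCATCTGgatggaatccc
Ankrd1 (chr19:36119845-36120094, minus strand): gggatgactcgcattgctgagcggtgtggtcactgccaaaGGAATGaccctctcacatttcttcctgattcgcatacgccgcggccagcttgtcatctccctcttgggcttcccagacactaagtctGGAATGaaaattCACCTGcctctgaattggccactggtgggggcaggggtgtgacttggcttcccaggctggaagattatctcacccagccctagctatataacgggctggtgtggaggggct
Ankrd1 was the only one of the 8 genes with the MCAT motif, at 2 places, a motif held by 12.6% of 32841 windows of the same length. Myoz2 was the only one with the MEF2 site, which 0.509% of windows hold. Every one of the 8 had an E-box, as did 66.2% of all windows. The ERR response element TCAAGGTCA was in none of the 8 and in 0.387% of windows, its shorter core AAGGTCA in none and in 4.08%, and the CArG box of serum response factor in none and in 1.47%. TCAAGGTCA contains AAGGTCA, and the matches describe these letters only. The MEF2 site and the CArG box were each searched in a strict form, and looser forms were not searched.

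The labels could be checked in part. Esrra, the ERRalpha gene, fell by 2.23 ± 0.116 (SE) on the log2 scale in knockout-labelled EDL of the ERRalpha/ERRgamma class and by 0.57 ± 0.116 in its soleus (limma, Benjamini-Hochberg adjusted p = 3.55e-15 and 0.00084). It was not called in the ERRalpha class, with changes of -0.19 ± 0.116 in EDL and 0.33 ± 0.116 in soleus (adjusted p = 0.482 and 0.224). Neither Esrrb nor Esrrg fell in a class whose label names it as deleted, and Esrrg rose by 1.09 ± 0.149 and 1.21 ± 0.149 in soleus of the ERRbeta/ERRgamma and ERRalpha/ERRgamma classes and by 0.51 ± 0.149 in that class of EDL. Against the labels too, Esrrb fell by 1.60 ± 0.209 (adjusted p = 9.67e-07) in EDL of the ERRalpha/ERRgamma class, where it is not named as deleted, and Esrrg rose by 0.61 ± 0.149 (adjusted p = 0.0198) in EDL of the ERRalpha class. The labels do not say which part of each gene is removed. The knockout-labelled group of a column was read from a mark in its name, so each direction below rests on that reading. The muscles matched their names: the log2 of the summed signal of 7 slow fibre markers was 13.29 to 14.32 in soleus and 4.04 to 7.12 in EDL, and that of 8 fast fibre markers 13.66 to 14.23 in soleus and 14.94 to 15.01 in EDL. Of the cardiac markers, Nppa had a value in 3 libraries and Myl7 in 1, and every other marker on the lists in at least 31. The soleus library dmKO 1 of the ERRbeta/ERRgamma class stood apart, with the highest leukocyte marker sum of all 36 (7.75) and the highest Ankrd1, Ankrd2, Csrp3, Des and Hspb7.

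Wild-type soleus differed from wild-type EDL in 9 of the 10 genes, 7 higher and 2 lower. Of all tested genes 54.4% were called between these muscles, and groups did not overlap for 8 of the 10 genes, against 18% of all genes. The comparison asks how the genes are divided between a slow and a fast muscle and used 9 libraries of each. The plot of the wild types shows the split.

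**Figure D1:**
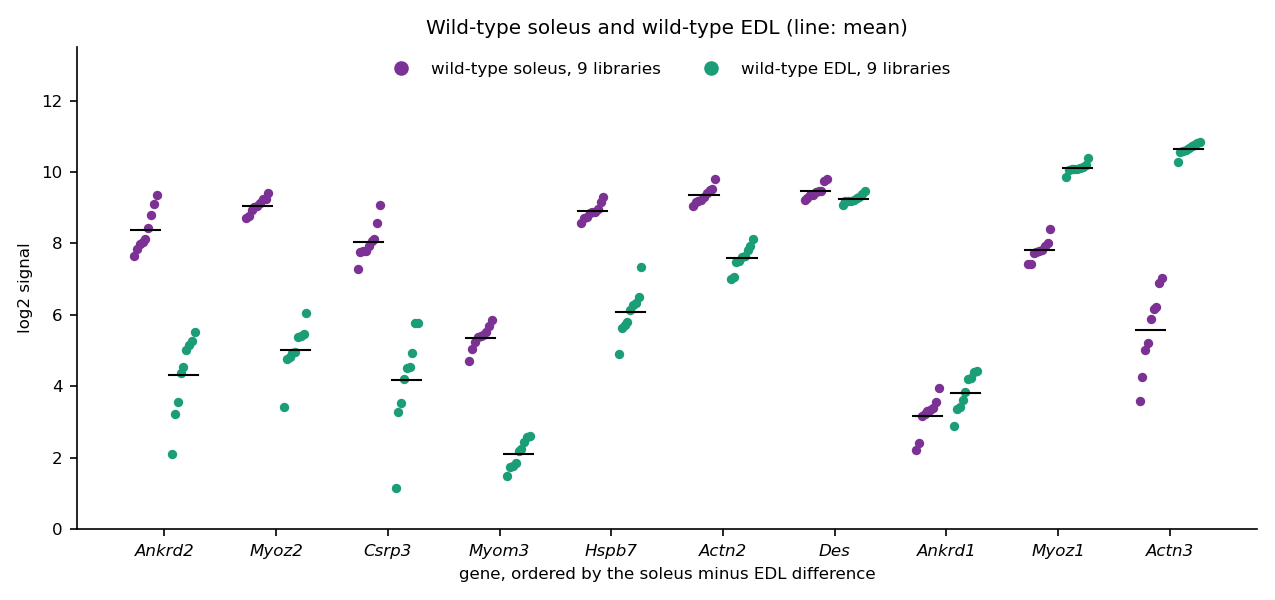
Log2 signal (vertical axis) of the 10 genes in 9 wild-type soleus libraries (purple, left) and 9 wild-type EDL libraries (green, right), ordered by the soleus minus EDL difference, with the mean as a line. Soleus stands above EDL without overlap for Ankrd2, Myoz2, Csrp3, Myom3, Hspb7 and Actn2, and below it without overlap for Myoz1 and Actn3.

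The calsarcins went opposite ways. Myoz2 was 8.71 to 9.40 with a median of 9.04 in wild-type soleus, against 3.41 to 6.06 with a median of 4.96 in wild-type EDL, a difference of 4.03 ± 0.165 (16.4-fold, limma, adjusted p = 4.2e-18). Myoz1 was 7.42 to 8.41 (median 7.80) in wild-type soleus and 9.87 to 10.40 (median 10.09) in wild-type EDL, a difference of -2.31 ± 0.105 (limma, adjusted p = 3.76e-17). Neither gene's muscles overlapped.

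Among the α-actinins, Actn3 had the largest difference of the 10 genes. It was 3.58 to 7.03 (median 5.89) in wild-type soleus and 10.28 to 10.84 (median 10.67) in wild-type EDL, a difference of -5.07 ± 0.335 (limma, adjusted p = 1.5e-13). Actn2 was 9.04 to 9.81 (median 9.30) in wild-type soleus and 7.01 to 8.13 (median 7.62) in wild-type EDL, higher by 1.77 ± 0.102 (adjusted p = 8.52e-15). Fast-fibre Actn3 varied over 3.45 log2 units among the 9 soleus libraries and over 0.56 among the 9 EDL libraries.

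The stretch-response genes were split. Ankrd2 was 7.66 to 9.34 (median 8.14) in wild-type soleus and 2.10 to 5.52 (median 4.55) in wild-type EDL, a difference of 4.06 ± 0.318 (16.7-fold, limma, adjusted p = 6.28e-12). Csrp3 was 7.28 to 9.07 (median 7.93) in wild-type soleus and 1.16 to 5.78 (median 4.51) in wild-type EDL, a difference of 3.86 ± 0.383 (14.5-fold, adjusted p = 9.54e-10). Ankrd1, the relative of Ankrd2, was not called: 2.20 to 3.96 (median 3.31) in wild-type soleus and 2.88 to 4.42 (median 3.84) in wild-type EDL, a difference of -0.64 ± 0.323 (adjusted p = 0.095).

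Hspb7 was 8.57 to 9.31 (median 8.87) in wild-type soleus and 4.91 to 7.35 (median 6.13) in wild-type EDL, higher by 2.82 ± 0.189 (limma, adjusted p = 1.94e-13). Myom3 was 4.70 to 5.86 (median 5.42) in wild-type soleus and 1.48 to 2.60 (median 2.18) in wild-type EDL, higher by 3.27 ± 0.133 (9.65-fold, adjusted p = 3.71e-18). Des was near level, 9.20 to 9.80 (median 9.44) in wild-type soleus and 9.09 to 9.46 (median 9.22) in wild-type EDL, and the muscles overlapped. Its difference of 0.21 ± 0.0751 (adjusted p = 0.022) was not called once libraries were recentred (0.15, adjusted p = 0.0876), nor without 1 of the wild-type libraries soleus ERRbeta/ERRgamma 2 or EDL ERRalpha 3 (adjusted p of 0.0078 to 0.0527 over the 18 libraries left out in turn).

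Ratios within a library set related genes against each other without a scale shift between libraries. The log2 ratio of Actn3 to Actn2 was -5.72 to -2.01 in wild-type soleus and 2.15 to 3.83 in wild-type EDL, a difference of -6.83 (two-sided exact permutation test, n = 9 each, p = 4.11e-05, the smallest it can give). For Myoz1 to Myoz2 the ratio was -1.72 to -0.30 in wild-type soleus and 3.81 to 6.99 in wild-type EDL, a difference of -6.34, and for Ankrd1 to Ankrd2 it was -6.58 to -4.17 in wild-type soleus and -1.66 to 1.52 in wild-type EDL, a difference of -4.70, both with the same exact p. Adjusted over the 21 ratio tests made, p was 0.000288 for each. The permutation treated libraries as independent, although most wild-type animals gave both muscles and the libraries came from different litter classes. It did not keep these pairs, so its p counts more independent units than there were animals. A ratio of 2 genes also holds their lengths, which the difference between muscles does not.

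**Figure D2:**
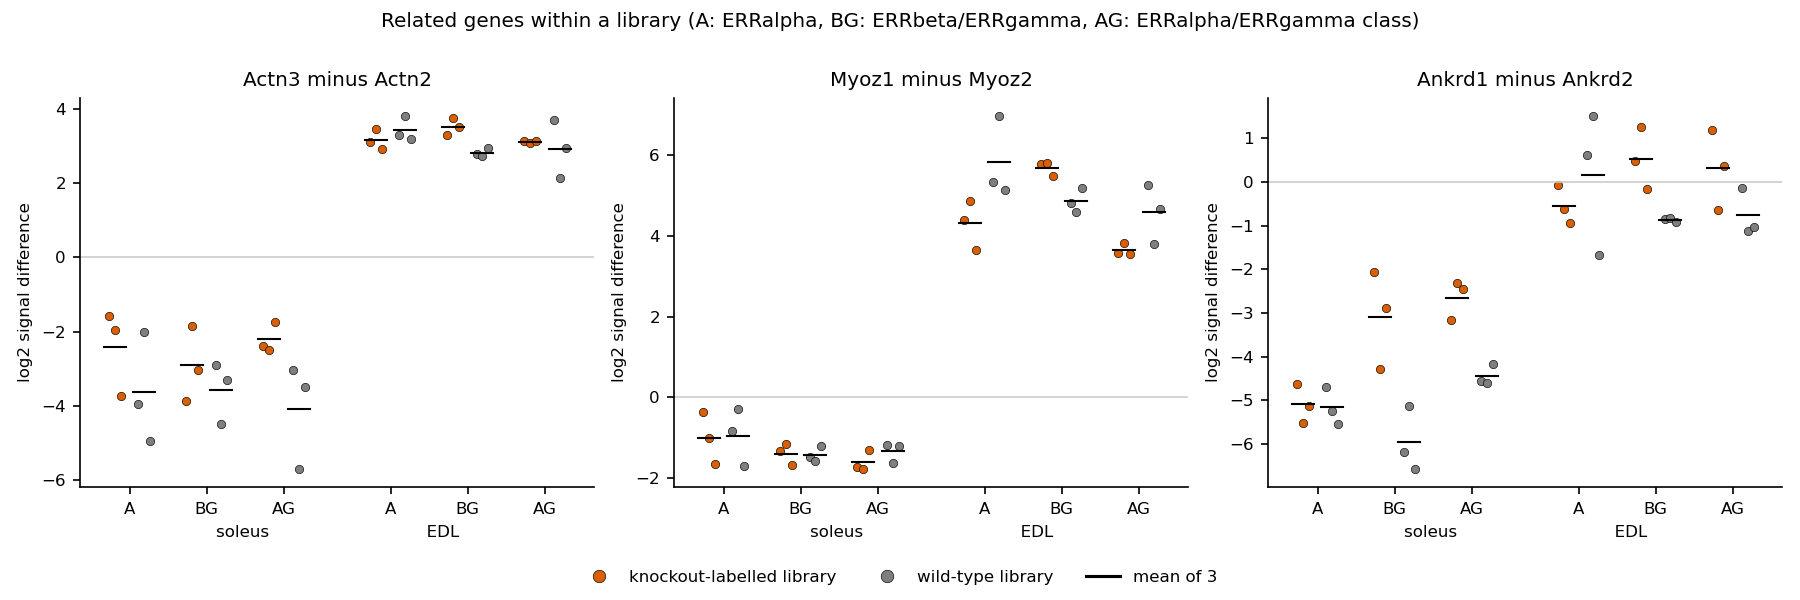
Log2 signal difference between related genes within each library (vertical axis) by muscle and class, with 3 knockout-labelled libraries (orange) left of 3 wild-type libraries (grey) and the mean as a line. Soleus lies below EDL in all 3 ratios. In soleus of the ERRbeta/ERRgamma and ERRalpha/ERRgamma classes the orange points for Ankrd1 minus Ankrd2 lie above the grey. In EDL of the ERRbeta/ERRgamma class they do so in all 3 ratios. Orange also lies above grey for Actn3 minus Actn2 in soleus of the ERRalpha/ERRgamma class, and below it for Myoz1 minus Myoz2 in EDL of the ERRalpha class.

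The plot of all libraries gives the values behind the comparisons of knockout-labelled with wild-type muscle that follow, and the plot of changes gives their sizes.

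**Figure D3:**
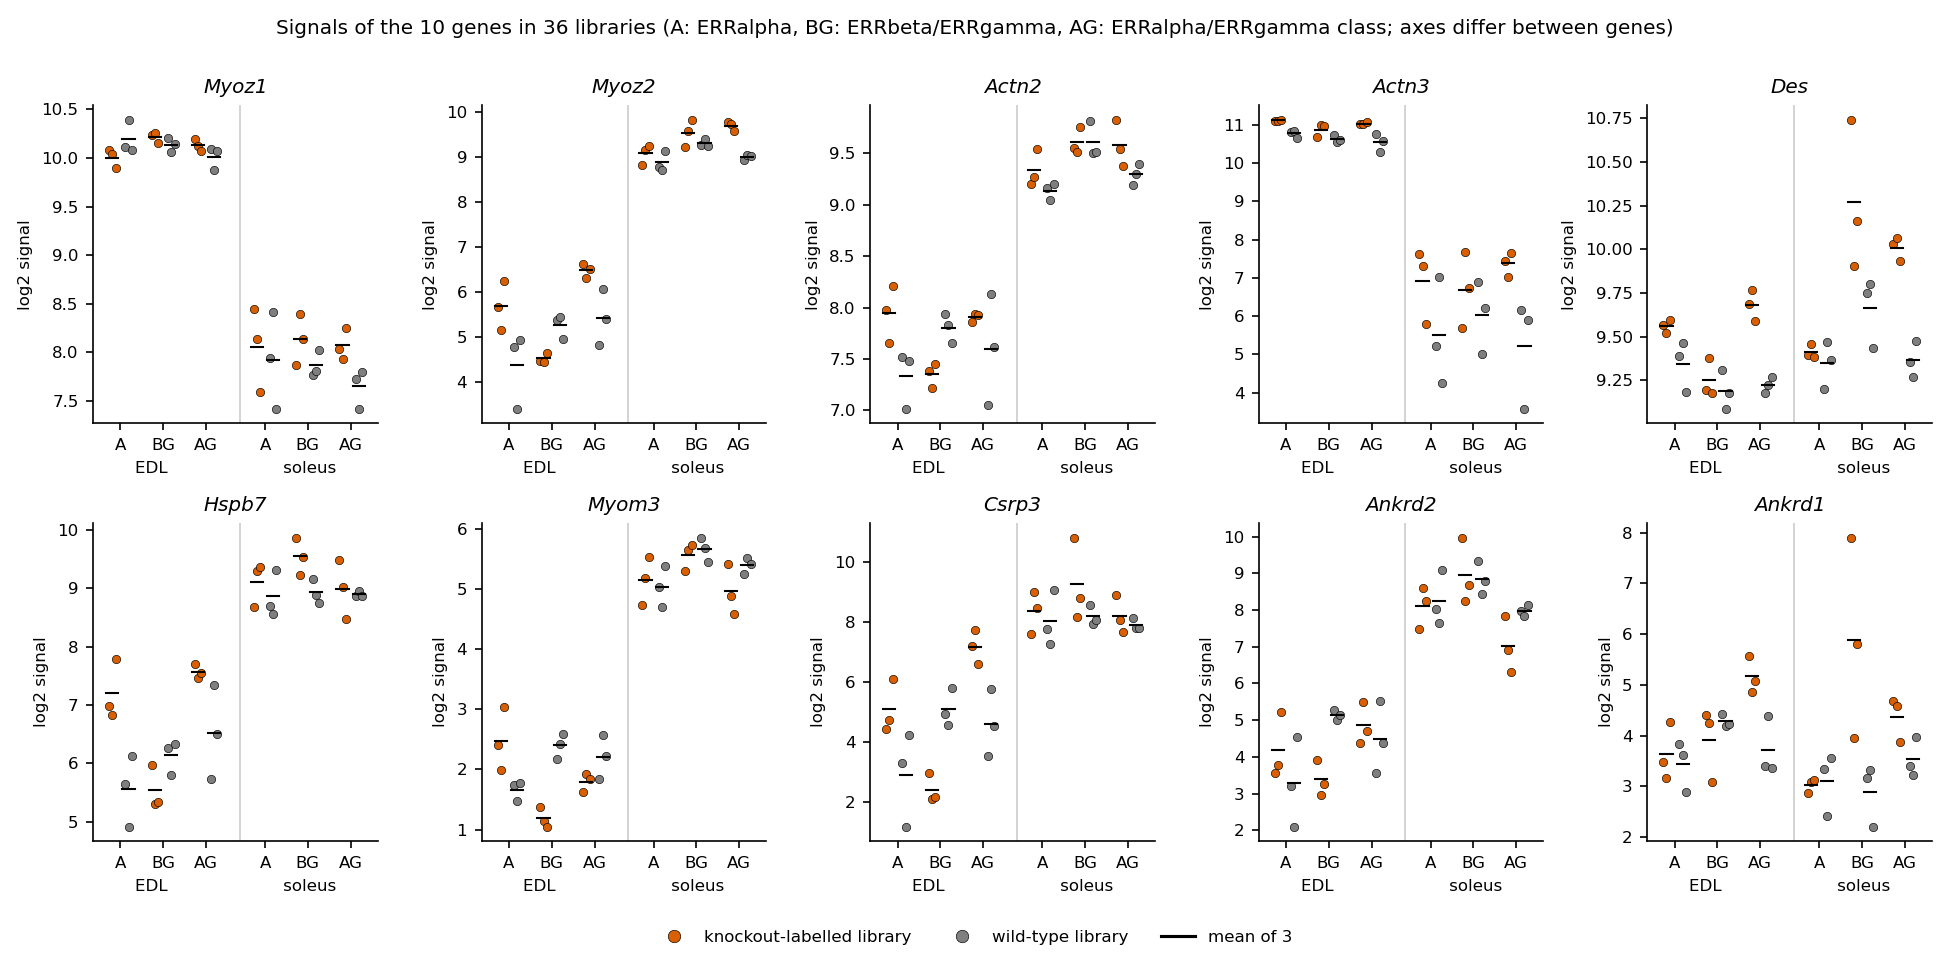
Log2 signal (vertical axis, its range differing between panels) of each of the 10 genes in all 36 libraries by muscle and class (A, ERRalpha; BG, ERRbeta/ERRgamma; AG, ERRalpha/ERRgamma), with 3 knockout-labelled libraries (orange) left of 3 wild-type libraries (grey) and the mean as a line. In EDL, Csrp3 and Myoz2 stand above their wild types in classes A and AG and below them in class BG, and in soleus Ankrd1 reaches 7.91 in class BG.

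**Figure D4:**
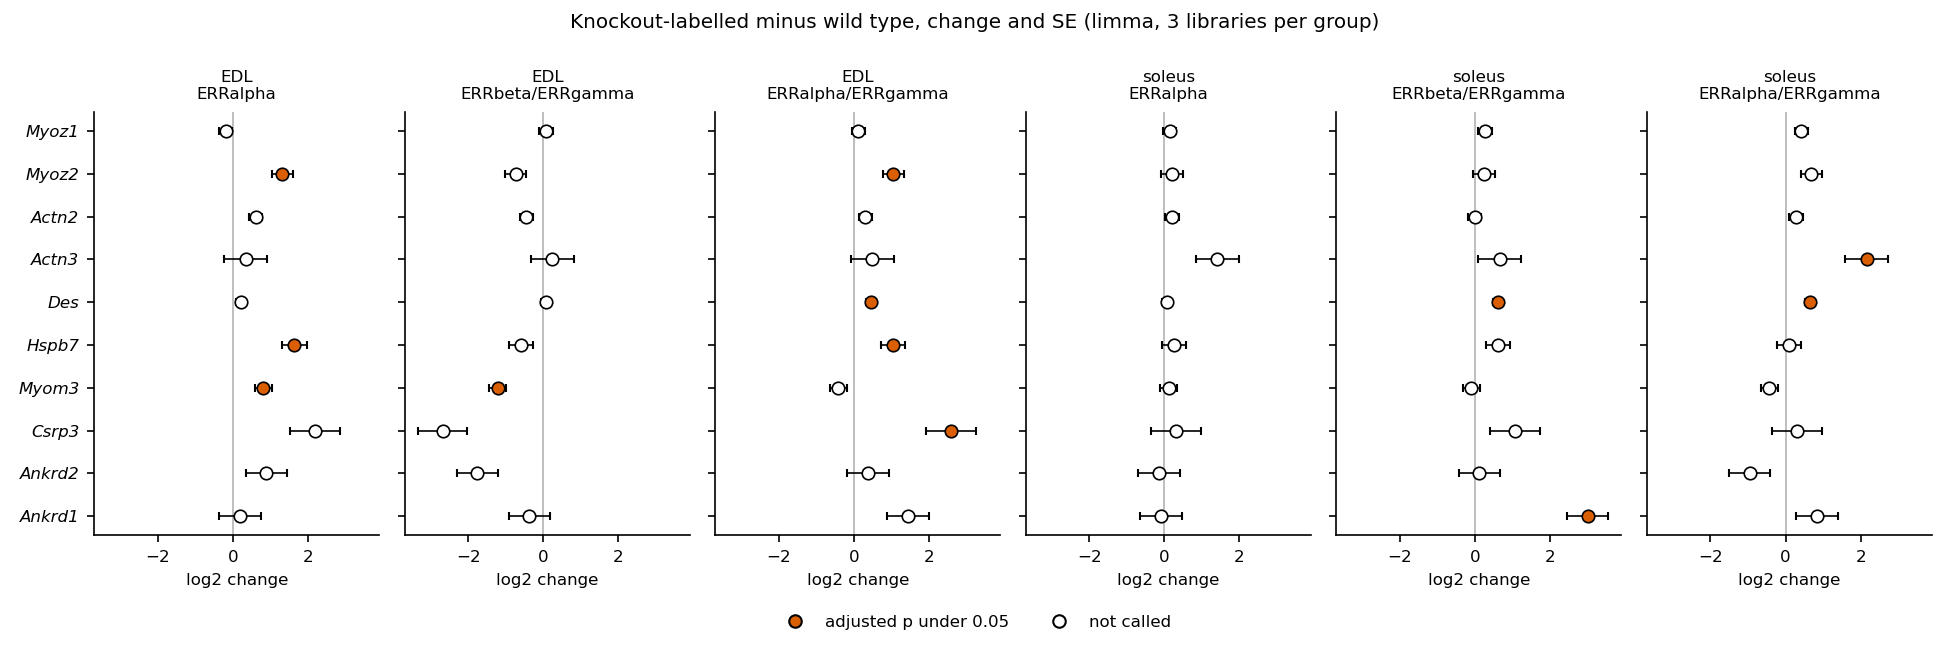
Log2 change, knockout-labelled minus wild type, with its SE (horizontal axis) for the 10 genes (rows) in 6 comparisons (panels, 3 libraries per group), filled where the limma adjusted p was under 0.05. The filled points are 3 in EDL ERRalpha, 1 in EDL ERRbeta/ERRgamma, 4 in EDL ERRalpha/ERRgamma, 0 in soleus ERRalpha and 2 in each of the other soleus panels.

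In EDL of the ERRalpha class, Hspb7, Myoz2 and Myom3 rose and no member fell. The 3 calls of 10 stand against 3.28% of all tested genes. Groups did not overlap for 8 of the 10, against 23% of all genes, and the median change of the 10 was 0.71, against 0.02 over all genes. Hspb7 was 6.99, 6.83 and 7.78 in knockout-labelled EDL and 5.64, 4.91 and 6.13 in wild-type EDL, a change of 1.64 ± 0.327 (3.11-fold, limma, adjusted p = 0.00323). Every knockout-labelled library lay above every wild type. The slow-fibre calsarcin gene Myoz2 was 5.67, 5.16 and 6.25 in knockout-labelled EDL and 4.77, 3.41 and 4.93 in wild-type EDL, a change of 1.32 ± 0.287 (2.50-fold, adjusted p = 0.00697). M-band Myom3 was 2.40, 1.99 and 3.04 in knockout-labelled EDL and 1.74, 1.48 and 1.77 in wild-type EDL, a change of 0.81 ± 0.231 (adjusted p = 0.0485). These groups did not overlap either, and wild-type library 2 was the lowest of the 6 for all 3 genes. The wild types of this class were low beside other wild-type EDL, with a Myom3 mean of 1.66, against 2.40 (ERRbeta/ERRgamma) and 2.21 (ERRalpha/ERRgamma). In the same order the means were 4.37, 5.26 and 5.43 for Myoz2 and 5.56, 6.14 and 6.53 for Hspb7. The knockout-labelled values of all 3 genes overlapped wild-type EDL of the ERRalpha/ERRgamma class.

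Csrp3 had the largest difference and was not called: 4.42, 4.72 and 6.10 in knockout-labelled EDL, against 3.28, 1.16 and 4.21 in wild-type EDL, a change of 2.20 ± 0.664 (limma, adjusted p = 0.0659). The 2 groups did not overlap, and the wild types spanned more than 3 log2 units. Actn2 was 7.97, 7.65 and 8.21 in knockout-labelled EDL and 7.52, 7.01 and 7.48 in wild-type EDL (0.61 ± 0.177, adjusted p = 0.0547). Of the other 5, Actn3 (0.34 ± 0.58) and Des (0.22 ± 0.13) did not overlap and lay above the wild types, Myoz1 (-0.19 ± 0.181) did not overlap and lay below, and Ankrd2 (0.90 ± 0.551) and Ankrd1 (0.19 ± 0.559) overlapped, with adjusted p between 0.472 and 0.932.

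Slow fibre markers moved less: 0 of 7 were called, and their median change was -0.10. Their summed level was 5.12 to 6.12 in knockout-labelled EDL and 4.48 to 5.54 in wild-type EDL, with overlap. Wild-type library 2 had the lowest of these sums too. The immature fibre marker sum was 3.84 to 4.11 in knockout-labelled EDL and 3.15 to 3.38 in wild-type EDL, with 0 of 5 called. Of the tendon markers 1 of 5 rose, Scx, while the median change of that list was -0.71. The tendon sum was 3.79 to 5.32 in knockout-labelled EDL and 4.63 to 5.08 in wild-type EDL. The part of these markers in the result was not tested. Without that library Hspb7 alone was called (1.32, with adjusted p over the 6 libraries left out in turn of 0.00215 to 0.0427), Myoz2 changed by 0.84 (0.00311 to 0.0836) and Myom3 by 0.72 (0.017 to 0.318). Without knockout-labelled library 3 Hspb7 alone was called too and Myom3 changed by 0.53. Myom3 was lost in 5 of 6 such fits and under 4 other settings (adjusted p 0.0509 to 0.0898), and a fit on these 6 libraries alone called none of the 10.

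In EDL of the ERRbeta/ERRgamma class Myom3 fell and no other member was called. This 1 call of 10 stands against 0.218% of all tested genes, and the groups did not overlap for 5 of the 10, against 15.5% of all genes. Myom3 was 1.37, 1.14 and 1.05 in knockout-labelled EDL and 2.18, 2.43 and 2.60 in wild-type EDL, a change of -1.21 ± 0.231 (limma, adjusted p = 0.0109). All 3 knockout-labelled libraries were below all wild types by more than the spread within either group.

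Csrp3 and Ankrd2 had larger differences with wider errors. Csrp3 was 2.96, 2.09 and 2.14 in knockout-labelled EDL and 4.92, 4.54 and 5.78 in wild-type EDL (-2.69 ± 0.664, limma, adjusted p = 0.105). Ankrd2 was 3.93, 2.97 and 3.26 in knockout-labelled EDL and 5.28, 5.01 and 5.15 in wild-type EDL (-1.76 ± 0.551, adjusted p = 0.282). Both genes had no overlap between the groups, and Csrp3's difference was the 8th largest of 13333 genes in size. Myoz2 (-0.74 ± 0.287, adjusted p = 0.487) and Actn2 (-0.46 ± 0.177, adjusted p = 0.493) did not overlap and lay below the wild types too. Hspb7 (-0.60 ± 0.327), Ankrd1 (-0.37 ± 0.559), Actn3 (0.24 ± 0.58), Myoz1 (0.08 ± 0.181) and Des (0.06 ± 0.13) overlapped. The log2 ratios within a library did not overlap, with differences of 0.69 for Actn3 to Actn2, 0.82 for Myoz1 to Myoz2 and 1.39 for Ankrd1 to Ankrd2. Each had p = 0.1 by the exact permutation test, the smallest it can give here.

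Slow fibre markers were lower in the same libraries: 2 of 7 fell (Myl2 by 4.21 ± 0.63 and Myl3 by 2.67 ± 0.555), and the summed level was 4.04 to 5.16 in knockout-labelled EDL and 6.42 to 6.59 in wild-type EDL, with no overlap. Their part in the result was not tested. The call of Myom3 was lost in 4 of the 6 fits that left out 1 library, those without knockout-labelled 2 or 3 or wild-type 2 or 3 (adjusted p 0.0233 to 0.088), and in the fit on these 6 libraries alone.

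In EDL of the ERRalpha/ERRgamma class, Csrp3, Myoz2, Hspb7 and Des rose and none of the 10 fell. The 4 calls of 10 stand against 18.1% of all tested genes and the 6 genes without overlap against 37.9% of all genes. The median change of the 10 was 0.48, against 0.13 over all genes. Csrp3 was 7.21, 7.73 and 6.59 in knockout-labelled EDL and 3.52, 5.76 and 4.51 in wild-type EDL, a change of 2.58 ± 0.664 (5.97-fold, limma, adjusted p = 0.00578). Knockout-labelled library 2 lay inside the wild-type soleus range of 7.28 to 9.07, and the other 2 lay below it and above every wild-type EDL library. Myoz2 was 6.62, 6.31 and 6.51 in knockout-labelled EDL and 4.82, 6.06 and 5.40 in wild-type EDL, a change of 1.05 ± 0.287 (adjusted p = 0.00906).

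Hspb7 was 7.70, 7.47 and 7.54 in knockout-labelled EDL and 5.73, 7.35 and 6.51 in wild-type EDL, a change of 1.04 ± 0.327 (limma, adjusted p = 0.0241). Wild-type library 2 came close to the lowest knockout-labelled library. Desmin's gene was 9.69, 9.77 and 9.59 in knockout-labelled EDL and 9.18, 9.22 and 9.27 in wild-type EDL, a change of 0.46 ± 0.13 (adjusted p = 0.0121). Its groups were narrow and well apart.

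Ankrd1 was 5.57, 4.86 and 5.07 in knockout-labelled EDL and 3.41, 4.39 and 3.36 in wild-type EDL without overlap, and it was not called (1.45 ± 0.559, limma, adjusted p = 0.0727). Actn3 did not overlap either (0.49 ± 0.58, adjusted p = 0.626). Its SE is shared with soleus, where its within-group SD was 1.08, against 0.132 in EDL. For Ankrd2 (0.37 ± 0.551), Actn2 (0.31 ± 0.177), Myoz1 (0.12 ± 0.181) and Myom3 (-0.42 ± 0.231) the groups overlapped, with adjusted p between 0.239 and 0.722.

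Of the slow fibre markers 5 of 7 rose, among them Myh7 by 3.55 ± 0.943, and their summed level was 4.48 to 7.12 in knockout-labelled EDL and 4.46 to 6.41 in wild-type EDL. Knockout-labelled library 2 had the highest Csrp3 of the 3 and a slow marker sum of 4.48, beside 4.46 in the lowest wild type. Of the immature fibre markers 2 of 5 rose, with sums of 3.75 to 4.50 in knockout-labelled EDL and 3.35 to 3.76 in wild-type EDL. Of the tendon markers 1 of 5 rose, Scx, with sums of 5.24 to 6.05 in knockout-labelled EDL and 5.72 to 5.88 in wild-type EDL. Of the endothelial markers 1 of 4 fell, Kdr (sums 4.97 to 5.47 in knockout-labelled EDL and 5.28 to 5.73 in wild-type EDL). The part of these markers in the result was not tested. Without wild-type library 1, Des alone stayed called, with adjusted p up to 0.0544 for Csrp3 and 0.0943 for Myoz2 over the libraries left out in turn. Without that library Hspb7 changed by 0.64, and it was lost in 4 of 6 such fits (up to 0.214) and in the fit on these 6 libraries alone (0.0832), and Des in 1, without knockout-labelled library 2 (up to 0.0548).

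The plot against fibre markers puts the EDL values of Csrp3, Hspb7 and Myom3 beside the slow marker sum. In the 9 wild-type EDL libraries the Pearson correlation with that sum was 0.74 for Csrp3, 0.51 for Hspb7, 0.74 for Myom3, 0.83 for Actn2, 0.79 for Ankrd2, 0.77 for Ankrd1 and 0.60 for Myoz2. It was negative for Actn3 (-0.50), Des (-0.42) and Myoz1 (-0.38). These are a description over libraries of 3 litter classes with no test. Over all 18 EDL libraries the correlation was 0.60 for Csrp3, 0.55 for Hspb7, 0.57 for Myom3, 0.67 for Actn2, 0.58 for Myoz2, 0.57 for Ankrd2 and 0.53 for Ankrd1. It was 0.09 for Des, -0.17 for Actn3 and -0.33 for Myoz1.

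**Figure D5:**
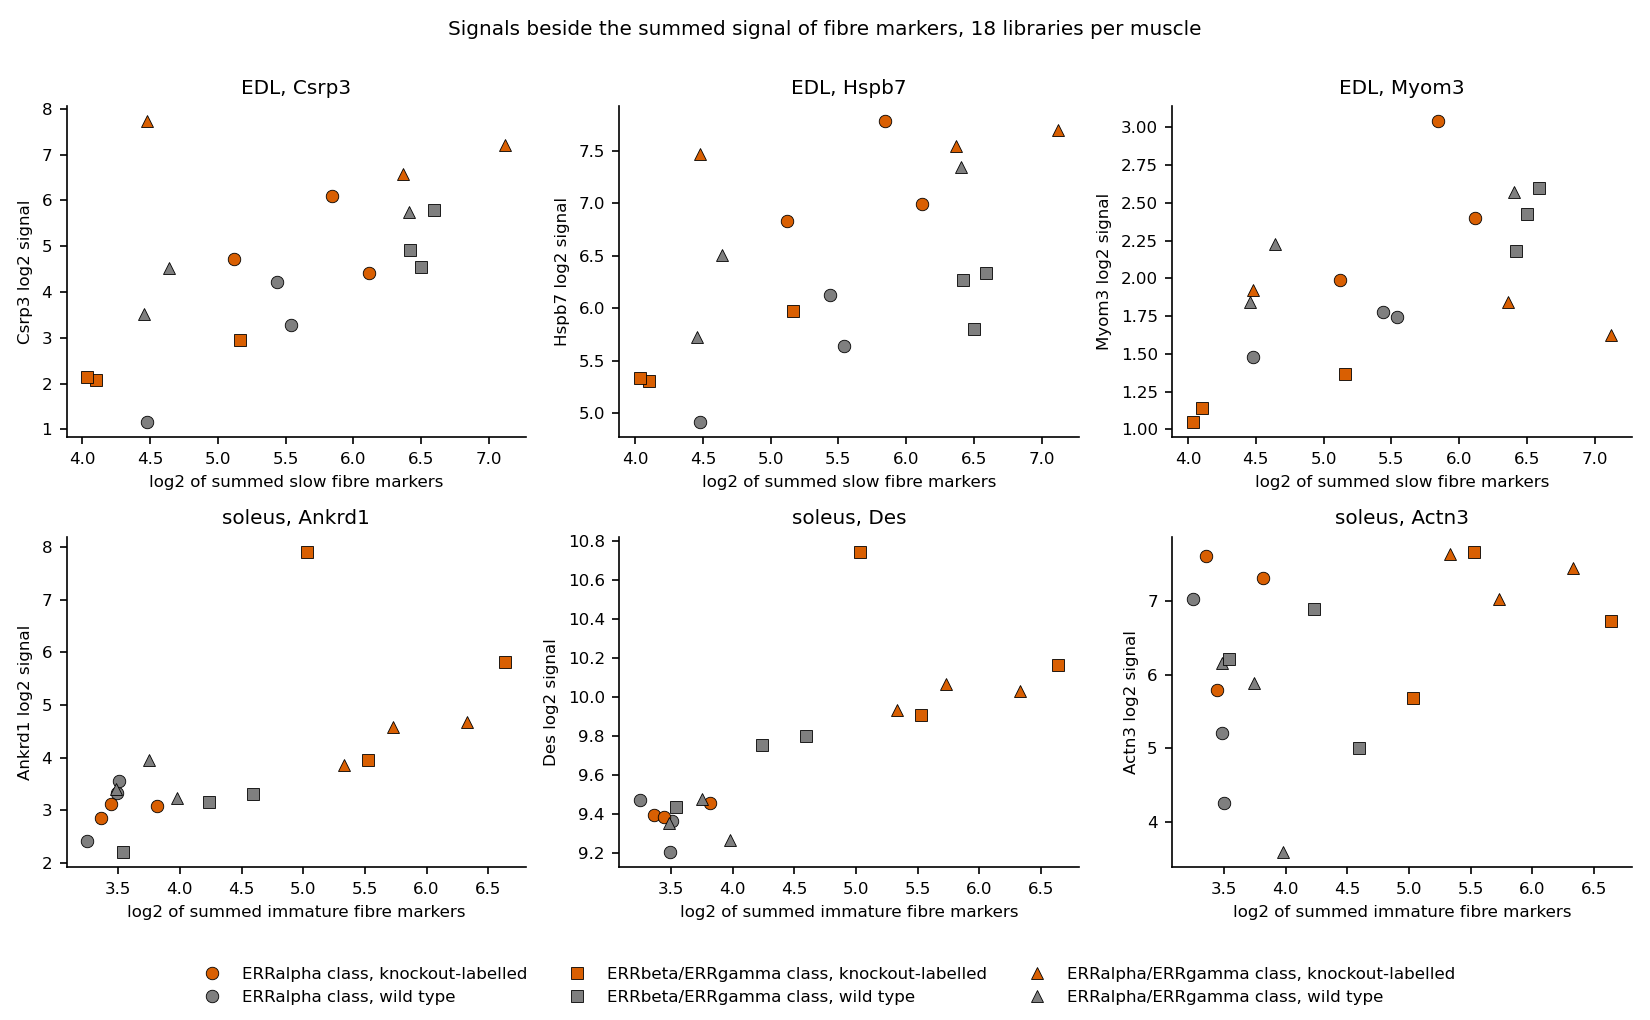
Log2 signal of a gene (vertical axis) against the log2 of the summed signal of 7 slow fibre markers in 18 EDL libraries (upper row) or of 5 immature fibre markers in 18 soleus libraries (lower row), with knockout-labelled libraries in orange and wild types in grey. The 3 orange triangles for Csrp3 lie at 6.59 to 7.73 across slow marker sums of 4.48 to 7.12, and the soleus library at 7.91 for Ankrd1 lies apart from the rest.

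In soleus of the ERRalpha class none of the 10 was called (limma, adjusted p under 0.05), against 0.71% of all tested genes. All 10 overlapped between the groups, where 16.5% of all genes did not. At an unadjusted p under 0.05, 1 of the 10 passed, Actn3, against 10.8% of all tested genes. It was 7.63, 7.32 and 5.80 in knockout-labelled soleus and 5.21, 7.03 and 4.25 in wild-type soleus (1.41 ± 0.58, adjusted p = 0.341). The groups overlapped through wild-type library 2. The other 9 were not called, at 0.32 for Csrp3, 0.25 for Hspb7, 0.20 for Actn2 and for Myoz2, 0.14 for Myoz1, 0.11 for Myom3, 0.07 for Des, -0.08 for Ankrd1 and -0.15 for Ankrd2, with 95% intervals such as -0.20 to 0.33 for Des, -1.04 to 1.68 for Csrp3 and -1.23 to 1.06 for Ankrd1. No slow, fast or immature fibre marker was called in this comparison.

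Ankrd1 and Des rose in soleus of the ERRbeta/ERRgamma class. These 2 calls of 10 stand against 6.71% of all tested genes, and the groups did not overlap for 3 of the 10, against 18% of all genes. Ankrd1 was 7.91, 3.95 and 5.81 in knockout-labelled soleus and 3.15, 3.31 and 2.20 in wild-type soleus, a change of 3.00 ± 0.559 (7.99-fold, limma, adjusted p = 0.00107). The knockout-labelled libraries spanned almost 4 log2 units and still all lay above the wild types. It was the 14th largest change of 13375 genes in size. Des was 10.74, 9.91 and 10.16 in knockout-labelled soleus and 9.75, 9.80 and 9.44 in wild-type soleus, a change of 0.61 ± 0.13 (adjusted p = 0.00393). Its lowest knockout-labelled library was close to the highest wild type.

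Hspb7, at 9.87, 9.23 and 9.54 in knockout-labelled soleus and 9.16, 8.88 and 8.74 in wild-type soleus, did not overlap and was not called (0.62 ± 0.327, limma, adjusted p = 0.275). Csrp3 was 10.82, 8.17 and 8.81 in knockout-labelled soleus and 8.57, 7.93 and 8.07 in wild-type soleus (1.07 ± 0.664, adjusted p = 0.364), with overlap. Actn3 (0.66 ± 0.58), Myoz1 (0.27 ± 0.181), Myoz2 (0.24 ± 0.287), Ankrd2 (0.12 ± 0.551), Actn2 (-0.0035 ± 0.177) and Myom3 (-0.10 ± 0.231) overlapped too. The Ankrd1 to Ankrd2 log2 ratio was -4.29 to -2.07 in knockout-labelled soleus and -6.58 to -5.12 in wild-type soleus, a difference of 2.88 (exact permutation test, p = 0.1, the smallest 3 against 3 allows).

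Immature fibre markers were higher in the same libraries. Of 5, 1 rose (Myh3, embryonic myosin, by 2.18 ± 0.54), and the summed level was 5.03 to 6.64 in knockout-labelled soleus and 3.54 to 4.59 in wild-type soleus, without overlap. The fast fibre marker sum was 14.13 to 14.21 in knockout-labelled soleus and 13.66 to 14.09 in wild-type soleus, also without overlap, with 1 of 8 higher, Mylpf (0.80 ± 0.181). The leukocyte sum was 4.26 to 7.75 in knockout-labelled soleus and 3.89 to 5.72 in wild-type soleus, with 0 of 4 markers called. The tendon sum was 4.98 to 6.90 in knockout-labelled soleus and 4.22 to 5.26 in wild-type soleus, with 2 of 5 higher, Scx and Thbs4. Their part in the result was not tested. Without knockout-labelled library 1, which stood apart, Ankrd1 was still called (1.99; adjusted p 7.48e-06 to 0.0147 over the libraries left out in turn), while Des was not (0.37; 0.000108 to 0.0513). Over all genes 396 were called without that library and 2139 without knockout-labelled library 2, against 898 with all. The fit on these 6 libraries alone called none of the 10 (limma, adjusted p = 0.308 for Ankrd1 and 0.416 for Des). The SE of Ankrd1 is shared with EDL, where its within-group SD was 0.513, against 0.913 in soleus.

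Actn3 and Des rose in soleus of the ERRalpha/ERRgamma class. The 2 calls of 10 stand against 12.7% of all tested genes and the 4 genes without overlap against 32.2% of all genes. Actn3 was 7.45, 7.03 and 7.65 in knockout-labelled soleus and 6.16, 3.58 and 5.89 in wild-type soleus, a change of 2.16 ± 0.58 (4.48-fold, limma, adjusted p = 0.0111). The change rested in part on wild-type library 2, the lowest of the 36 for this gene: without it the change was 1.35 and the call was lost, and the adjusted p ran from 0.00528 to 0.142 over the libraries left out in turn. It was 0.0591 in the fit on these 6 libraries alone. The SE of 0.58 is shared with EDL and is narrow for soleus, where the within-group SD of Actn3 was 1.08, against 0.132 in EDL. Des was 10.03, 10.07 and 9.93 in knockout-labelled soleus and 9.35, 9.27 and 9.48 in wild-type soleus, a change of 0.64 ± 0.13 (adjusted p = 0.000827). Its groups were narrow and well apart, and it stayed called without any 1 of the 6 libraries.

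Myoz2, at 9.77, 9.73 and 9.56 in knockout-labelled soleus and 8.92, 9.04 and 9.02 in wild-type soleus, did not overlap and was not called (0.69 ± 0.287, limma, adjusted p = 0.123). Nor was Myoz1, which did not overlap either (0.42 ± 0.181, adjusted p = 0.135). Ankrd1 was 4.68, 4.59 and 3.86 in knockout-labelled soleus and 3.40, 3.23 and 3.96 in wild-type soleus (0.84 ± 0.559, adjusted p = 0.375), with overlap by 1 library. Ankrd2 was 7.85, 6.91 and 6.31 in knockout-labelled soleus and 7.97, 7.83 and 8.14 in wild-type soleus (-0.96 ± 0.551, adjusted p = 0.294), with overlap at 1 library. Csrp3 (0.30 ± 0.664), Actn2 (0.28 ± 0.177), Hspb7 (0.09 ± 0.327) and Myom3 (-0.43 ± 0.231) overlapped.

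Of the immature fibre markers 3 of 5 rose in this soleus comparison, with a summed level of 5.33 to 6.33 in knockout-labelled soleus and 3.48 to 3.98 in wild-type soleus. The fast marker sum was 13.87 to 14.18 in knockout-labelled soleus and 13.76 to 14.02 in wild-type soleus, with 1 of 8 fast markers called and lower. The leukocyte sum was 6.01 to 6.29 in knockout-labelled soleus and 5.11 to 5.69 in wild-type soleus, with 0 of 4 called. The tendon sum was 5.84 to 6.59 in knockout-labelled soleus and 5.13 to 5.47 in wild-type soleus, with 1 of 5 higher, Scx. The part of these markers was not tested. Over the 18 soleus libraries the Pearson correlation with the immature marker sum was 0.79 for Des, 0.65 for Ankrd1, 0.91 for Myoz2 and 0.37 for Actn3, as a description with no test. For the other genes it was 0.71 (Actn2), 0.46 (Hspb7), 0.31 (Csrp3), 0.24 (Myoz1), 0.20 (Myom3) and -0.11 (Ankrd2).

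Whether a change differed between the muscles was tested as soleus change minus EDL change. None of the 10 was called in any class at an adjusted p under 0.05 by limma, where 0.0151% of all tested genes were in the ERRalpha class, 0.21% in the ERRbeta/ERRgamma class and 2.07% in the ERRalpha/ERRgamma class. At an unadjusted p under 0.05, 3, 7 and 2 of the 10 passed in those classes, against 7.28%, 11.9% and 10.4% of all tested genes. In the ERRbeta/ERRgamma class Csrp3 differed by 3.76 ± 0.939 (95% interval 1.84 to 5.68, adjusted p = 0.0793) and Ankrd1 by 3.37 ± 0.791 (1.75 to 4.99, adjusted p = 0.0606). With the animal as a replicate block, which pairs the 2 muscles of an animal, both were called, 2 of the 10. Without the soleus knockout-labelled library 2 of that class 3 were called (these and Des), and without its library 1 none was. Over all genes 105 were called with the block, 521 without that library 2 and 1 without library 1. With neither change 28 of 13305 were called. In the ERRalpha class the differences of Hspb7 (-1.38 ± 0.462) and Myoz2 (-1.12 ± 0.405) had adjusted p of 0.39 and 0.47, so a change called in EDL and not in soleus is not shown to differ between them.

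Differences between the classes were tested within EDL, where each class has its own wild types. Both differences use the same ERRalpha/ERRgamma libraries. The ERRalpha/ERRgamma change minus the ERRbeta/ERRgamma change was called for 3 of the 10, against 6.87% of all tested genes: 5.27 ± 0.939 for Csrp3 (limma, adjusted p = 0.000252), 1.79 ± 0.405 for Myoz2 (adjusted p = 0.00403) and 1.64 ± 0.462 for Hspb7 (adjusted p = 0.0244). Csrp3's was the 2nd largest in size of 13302 genes. All 10 differences were above 0, with a median of 1.22, against 0.08 over all genes. Leaving out 1 library in turn kept Csrp3 (adjusted p 0.000102 to 0.00157) and Myoz2 (0.000646 to 0.0208) called in all 12 fits and lost Hspb7 in 6 of 12 (0.00276 to 0.108).

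The ERRalpha/ERRgamma change minus the ERRalpha change in EDL was called for 1 of the 10, against 4.81% of all tested genes. Myom3 had a difference of -1.23 ± 0.327 (limma, adjusted p = 0.0217), having changed by -0.42 ± 0.231 in the ERRalpha/ERRgamma class and by 0.81 ± 0.231 in the ERRalpha class. This call was lost with a pseudocount of 1 (adjusted p = 0.0501) and in 4 of 12 fits without 1 library (0.00464 to 0.103). Myom3's wild-type EDL mean was 1.66 in the ERRalpha class and 2.21 in the ERRalpha/ERRgamma class. Its knockout-labelled EDL means were 2.48 and 1.80. Csrp3, Myoz2 and Hspb7 differed by 0.38 ± 0.939, -0.27 ± 0.405 and -0.60 ± 0.462, with 95% intervals of -1.54 to 2.30, -1.10 to 0.56 and -1.54 to 0.35. In soleus, 0 of the 10 were called for either difference by limma, where 4.75% and 1.2% of all tested genes were. At an unadjusted p under 0.05, 1 of the 10 passed against the ERRalpha class, Des (0.58 ± 0.184, adjusted p = 0.0693), and 1 against the ERRbeta/ERRgamma class, Ankrd1 (-2.16 ± 0.791, adjusted p = 0.22). These counts stand against 17% and 11.9% of all tested genes.

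Another 64 genes of the same structures and responses were tested in 5 lists, and the named ones are the called genes with the largest changes. In EDL of the ERRalpha class 4 of 64 rose and none fell: the LIM protein genes Fhl1 (1.30 ± 0.278) and Pdlim3 (0.75 ± 0.187), the actin-binding Xirp2 (0.51 ± 0.122) and the small heat shock gene Hspb6 (0.70 ± 0.112). In EDL of the ERRbeta/ERRgamma class none rose and 1 fell, Pdlim1 (-0.89 ± 0.166), another Z-disc LIM protein gene. None was called in soleus of the ERRalpha class.

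In EDL of the ERRalpha/ERRgamma class 29 of the 64 rose and 3 fell, with a median change of 0.40. All 6 other small heat shock genes rose, led by Hspb1 (1.46 ± 0.369), Cryab (1.11 ± 0.298), whose product αB-crystallin binds desmin, and Hspb8 (0.73 ± 0.154). Of 27 other Z-disc genes 12 rose and 2 fell, including Pdlim3 (1.02 ± 0.187), Fhl1 (0.88 ± 0.278) and Sorbs2 (-0.67 ± 0.211). Of 12 other M-band and titin-linked genes 6 rose, led by the myomesin gene Myom1 (0.97 ± 0.127) and the muscle ubiquitin ligase genes Trim63 (0.56 ± 0.156) and Trim54 (0.55 ± 0.0781). Of 8 intermediate filament and linker genes 4 rose and 1 fell, with the keratin gene Krt18 (2.90 ± 0.785) and synemin, Synm (0.61 ± 0.16), above, and 1 of 11 other stretch-response genes rose, Cyr61 (1.03 ± 0.282).

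In soleus of the ERRbeta/ERRgamma class 13 of the 64 rose and 1 fell. Of 11 other stretch-response genes 2 rose beside Ankrd1, Ctgf (1.55 ± 0.389) and Cyr61 (0.98 ± 0.282). Both are targets of YAP and TEAD factors, whose part was not tested. Of 6 other small heat shock genes 4 rose, led by Hspb1 (1.26 ± 0.369), Hspb8 (0.78 ± 0.154) and Hspb3 (0.68 ± 0.128). Pdlim3 rose (1.02 ± 0.187) with the intermediate filament gene nestin, Nes (0.90 ± 0.263), and the titin cap gene Tcap fell (-1.02 ± 0.145). In soleus of the ERRalpha/ERRgamma class 17 of the 64 rose and none fell, among them Cyr61 (1.04 ± 0.282), Pdlim3 (0.78 ± 0.187), the obscurin-like gene Obsl1 (0.68 ± 0.145) and Hspb8 (0.58 ± 0.154). Between the wild-type muscles 28 of the 64 were higher and 18 lower in soleus, with Fhl2 (5.80 ± 0.233) and Pdlim1 (3.58 ± 0.0961) the highest and Sorbs2 (-2.69 ± 0.122) the lowest among Z-disc genes. These lists were chosen with results of these data known, and their counts stand beside the background shares given for the 10 genes.

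The 10 genes varied unequally among libraries of 1 group. The within-group SD was 0.881 for Csrp3, 0.768 for Actn3, 0.741 for Ankrd1 and 0.73 for Ankrd2, larger than in at least 95% of the 11914 genes with a value in every library, whose median was 0.202. Hspb7 (0.431), Myoz2 (0.377) and Myom3 (0.302) were between, and Myoz1 (0.234), Actn2 (0.229) and Des (0.162) were near that median or below. The median covers genes of all signal levels. Among genes with a mean signal at or above the lowest of the 10, 89.3%, 88.9% and 74.3% had a smaller SD than Myoz1, Actn2 and Des. The spread had a muscle of its own for some: Actn3's SD was 1.08 in soleus and 0.132 in EDL, and Myoz2's was 0.191 in soleus and 0.499 in EDL. The fit gives each gene 1 SE for both muscles, so Actn3's is wide for its EDL changes and narrow for its soleus changes. Ankrd1 (SD 0.913 in soleus and 0.513 in EDL), Myoz1 (0.313 and 0.105) and Des (0.207 and 0.0966) lean as Actn3 does. Myoz2's leans the other way.

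Likeness was measured as the Pearson correlation over the 36 libraries, centred on the mean of each muscle, with all 11913 other genes that have a value in every library. It is a description, and the libraries share groups and animals. Csrp3 and Hspb7 were each other's nearest (0.91, Spearman 0.89), with Fhl1 next for both (0.86 and 0.89). Myoz2 was nearest Fhl1 (0.91) and Hspb7 (0.86, with 0.93 within EDL and 0.44 within soleus), and Actn2 nearest Myoz2 (0.83) and the leiomodin gene Lmod2 (0.77). Ankrd2 was nearest Csrp3 (0.76) and Klhl34 (0.70, with 0.89 within EDL and 0.31 within soleus).

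The fast-fibre genes kept other company. Actn3 was nearest Mybpc2 (0.88), the fast myosin-binding protein C gene, and the parvalbumin gene Pvalb (0.88, with -0.16 within EDL and 0.91 within soleus). Myoz1 was nearest Mybpc2 (0.82, with 0.32 within EDL and 0.89 within soleus) and Dhdh (0.79, with 0.38 within EDL and 0.87 within soleus). Myom3 was nearest Pdlim1 (0.83) and Stau2 (0.78). Des was nearest the integrin gene Itga7 (0.86) and the ubiquitin gene Ubb (0.85), and Ankrd1 nearest the calpain gene Capn2 (0.87, Spearman 0.69) and Hspb1 (0.85, Spearman 0.66). Ankrd1 and Des correlated at 0.77 with each other, 0.86 within soleus and 0.46 within EDL.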

How the data were processed

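RNA from 36 muscles was sequenced, and the authors deposited 1 table of log2 signals, log transformed and quantile normalized by the authors as the name of the deposited table says; base 2 was read from the steps between low values. Partek 6.6 and the builds GRCm38.p6 and mm10 are named per the submitters' processing notes. The aligner and counter were not given in the sources used here, nor was the unit that was logged, and read depth is unknown. Of 45802 gene rows, 27904 held no value and 25 rows with values carried a date in place of a symbol and were left out, leaving 17873 genes. Genes whose mean, with missing values at the lowest value of -8.21, exceeded the percentile 25 of all genes (-5.24) were kept: 13404, of which 11914 had a value in every library. Missing values otherwise stayed missing; none of the 10 genes had any.

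Columns were mapped to groups by muscle, class and a mark in their names (FXp or FX-), read here as floxed with or without CRE. EDL columns of the ERRalpha class carried no class letter and were placed by animal numbers shared with soleus, and replicate numbers follow column order as names only. Replicates are biological, per the series design. limma 3.58.1 in R 4.3.3 was fitted with 12 group means over all libraries, an intensity trend and 24 residual degrees of freedom; p-values were Benjamini-Hochberg adjusted over all genes tested within each of 14 comparisons, and called means an adjusted p under 0.05. Changes are given with their SE. The fit was tested on simulated data with known changes. Ratios of related genes used exact permutation tests.

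The naming rule takes the 10 genes in every comparison, and in the differences between muscles or classes only those discussed are given values; of other list genes, at most the 3 called ones with the largest change per list and comparison; and the 2 nearest genes by correlation. Members and lists were chosen with earlier results of these data known. The animal number in the column names pairs soleus and EDL of 14 animals: their deviations from the group means correlated at -0.07 to 0.32 (median 0.10), and an animal block was fitted as an alternative. The other alternatives were recentring, missing values at the lowest value, no filter or a filter at the median, a pseudocount of 1, robust variances, a fit on only the libraries compared, and leaving out each library. Leaving out libraries for the ratios was added after seeing the data.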

Additional observations from a re-analysis of the deposited data

Results flagged for a closer look

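In 20 groups of 9 libraries (10 genes, wild-type soleus and wild-type EDL), 2 had a lowest library set apart from the rest by Dixon's criterion of 0.493, where chance marks about 1 in 20. Myoz2 was 3.41 in wild-type EDL library 2 of the ERRalpha class, the next lowest being 4.77 (gap ratio 0.513). Actn3 was 10.28 in wild-type EDL library 2 of the ERRalpha/ERRgamma class, the next lowest being 10.56 (gap ratio 0.501).

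Between classes, 4 differences passed the test of the difference itself in EDL. For the ERRalpha/ERRgamma change minus the ERRbeta/ERRgamma change these were 5.27 for Csrp3, 1.79 for Myoz2 and 1.64 for Hspb7. For the ERRalpha/ERRgamma change minus the ERRalpha change it was -1.23 for Myom3.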

How the results depend on the processing

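Fitted on only the libraries compared, 0 of the 10 genes were called in EDL of the ERRalpha class, 0 in EDL of the ERRbeta/ERRgamma class, 0 in soleus of the ERRbeta/ERRgamma class and 0 for the EDL difference between the ERRalpha/ERRgamma and ERRalpha classes. That fit called 6 for the EDL difference from the ERRbeta/ERRgamma class and 1 for the soleus difference from the ERRalpha class, Des. In the fit on all 36 libraries, 6.87% and 4.75% of all tested genes were called for these differences. With the filter at the median, 1 was called for the muscle difference of the ERRbeta/ERRgamma class (Ankrd1) and 1 for that soleus difference. A pseudocount of 1 left 0 for the EDL difference between the ERRalpha/ERRgamma and ERRalpha classes. The replicate block by animal called 2 for the muscle difference of the ERRbeta/ERRgamma class and changed no other count of these genes. The cause was not tested.

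Leaving out 1 library gave 1 to 4 genes in EDL of the ERRalpha class, 0 to 1 in the ERRbeta/ERRgamma class of EDL, 1 to 5 in its ERRalpha/ERRgamma class, 0 to 0 in soleus of the ERRalpha class, 1 to 2 in each of the other soleus comparisons and 8 to 9 between wild types. It gave 0 to 3 for the muscle difference of the ERRbeta/ERRgamma class. For the class differences it gave 0 to 1 and 2 to 5 in EDL against ERRalpha and ERRbeta/ERRgamma, and 0 to 1 in soleus against ERRbeta/ERRgamma. Of 282 such refits of single called changes, 250 stayed called and 32 did not; none changed sign.

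Ratio differences near 0 changed sign with 1 library left out. Actn3 to Actn2 in EDL of the ERRalpha/ERRgamma class ran from -0.21 to 0.57. In soleus of the ERRalpha class Ankrd1 to Ankrd2 ran from -0.16 to 0.30, and Myoz1 to Myoz2 from -0.44 to 0.26. In soleus of the ERRbeta/ERRgamma class Myoz1 to Myoz2 ran from -0.086 to 0.18.

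Over all genes, the fit on only the libraries compared called 201 in EDL and 2 in soleus of the ERRalpha class, and 4 in EDL and 4 in soleus of the ERRbeta/ERRgamma class, against 436, 95, 29 and 898 in the fit on all 36, and 29 against 161 for the soleus difference between the ERRalpha/ERRgamma and ERRbeta/ERRgamma classes. For the muscle difference of the ERRbeta/ERRgamma class it called 0, against 28, with 46 at the median filter, 62 with the pseudocount, 105 with the block and 1 to 521 without 1 library. That of the ERRalpha class had 2, and 1 to 15 under the other settings. Without 1 library the counts were 225 to 303 and 25 to 73 in EDL and soleus of the ERRalpha class, 11 to 25 and 396 to 2139 in those of the ERRbeta/ERRgamma class and 122 to 323 for that soleus difference. SEs of 0.551 to 0.664 for Csrp3, Actn3, Ankrd1 and Ankrd2 limit which of their changes could be called. Actn3's SE, shared by both muscles, fits neither of them, being wide for EDL and narrow for soleus.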
